A study of Mus musculus with 18 samples.

Results

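The messenger RNA of the voltage-gated and potassium ion channels was followed through the hypothalamus, pituitary and thyroid of THRB K146Q mice and WT mice. The members were chosen by symbol: all potassium channel genes named Kcn followed by letters and a number, the pore (Cacna1) and accessory (Cacna2d, Cacnb, Cacng) genes of voltage-gated calcium channels, the pore and accessory genes of sodium channels (Scn) and the pacemaker channel genes (Hcn). The rule found 135 of 24054 genes, of which 92 belonged to the potassium, 26 to the calcium, 13 to the sodium and 4 to the HCN class. Scn2a1, an older spelling for a brain sodium channel pore, and Kcne1l fall outside the rule by their spelling.

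RNA-Seq came from 18 libraries in 6 groups of 3, WT and K146Q hypothalamus, pituitary and thyroid, from C57BL/Ntac males aged 3 months. WT mice carried the numbers 1, 2 and 43 and K146Q mice the numbers 60, 62 and 83, and the same numbers recur in all 3 tissues. K146Q mice carry a whole-body knockin in which a lysine of thyroid hormone receptor β, a site for attachment of the small protein SUMO, is replaced by glutamine. The mutation is therefore present in brain, pituitary and thyroid alike, and direct and indirect effects on a tissue cannot be told apart. Thrb mRNA itself does not check the genotype labels, since the mutation changes 1 residue. Its normalised CPM (read counts per gene scaled to a common library size, the unit of all levels below) was 104, 97.7 and 106 in the WT and 159, 142 and 184 in the K146Q pituitary, and 14.9, 16.3 and 15.6 in the WT and 7.19, 5.64 and 4.98 in the K146Q thyroid.

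Ion channels set the membrane potential of excitable cells. Potassium channels bring the membrane back to rest or hold it there, sodium and calcium channels depolarise it, and HCN channels carry an inward current at negative potentials that helps to pace firing. Pituitary hormone cells fire action potentials spontaneously, and the calcium that enters through voltage-gated channels drives secretion. In the thyroid follicle, an epithelium rather than an excitable tissue, potassium channels recycle potassium beside the sodium pump and so help to keep up the sodium gradient on which iodide uptake depends.

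The libraries held 14902330 to 21230050 reads, and 3 reads corresponded to 0.133 to 0.190 CPM. Defining markers fitted the labels. The summed CPM of 6 neuron markers was 3029 to 3150 in WT hypothalamus, the thyrotroph markers Tshb and Cga summed to 3392 to 4600 in WT pituitary, and 6 follicular markers to 298992 to 360966 in WT thyroid. The thyroid pieces also held transcripts of neighbouring tissue: markers of skeletal muscle, C cells, parathyroid and fat were all present, and several of them differed between mice or genotypes. In bulk tissue, fewer cells of a type and less RNA per cell cannot be told apart. Their values are given below beside the channel genes that they touch.

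In WT mice the channel genes were most abundant in the hypothalamus. A mean of at least 1 CPM was reached by 114 members there, by 106 in the pituitary and by 78 in the thyroid, and at least 100 CPM by 30, 7 and 6. Levels per kilobase of merged exon (CPM per kb, mean ± SD, n = 3) allow genes to be compared. In the hypothalamus the highest potassium, calcium and pacemaker members were Kcnj10, a glial inward rectifier, at 107 ± 4.15, the calcium channel β subunit Cacnb3 at 37.4 ± 2.34 and the pacemaker channel Hcn2 at 99.7 ± 4.49 CPM per kb. In the pituitary they were Kcnh2 (erg1, which carries a resting current in hormone cells) at 40.7 ± 2.74, Cacnb3 at 34.2 ± 3.37 and Hcn2 at 12.4 ± 1.21 CPM per kb. Kcnk2, a stretch- and lipid-sensitive leak channel, followed Kcnh2 at 30.7 ± 2.78 CPM per kb, and their ranges over mice did not meet. In the thyroid the order among potassium channels was Kcnk1, a two-pore leak channel, at 281 ± 56.6, then Kcnh3 (elk2) at 143 ± 10.1 and the inward rectifier Kcnj15 at 52.4 ± 5.04 CPM per kb, with no overlap between neighbours in this order. Among calcium channel genes of the WT thyroid, Cacna1s and Cacng1, the pore and γ subunit of the skeletal muscle channel, were at 8.60 ± 6.67 and 8.36 ± 6.04 CPM per kb, with ranges over mice that overlap, and Cacng4 at 4.68 ± 0.997 CPM per kb. In WT mouse 1, the lowest for muscle markers, Cacna1s was below both of the others.

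WT tissues were compared in 1 limma fit over all 18 libraries, with 1 estimate of each gene's spread shared by all 6 groups. Against WT hypothalamus, 25 of the 130 members tested were higher and 85 lower in WT pituitary (84.6% called, with 73.0% of 17140 genes, 37.0% higher and 35.9% lower), with a median log2 difference of -1.37 against 0.01 over all genes. Lowest in pituitary on this scale were the neuronal sodium channel pore Scn1a (mean 187 CPM in hypothalamus and 0.903 CPM in pituitary, log2 difference -7.07), the fast delayed rectifier Kcnc2 (-6.22), the M-current subunit Kcnq5 (-5.73) and the sodium channel subunit Scn4b (-5.62). Kcnh8 (elk1) was the reverse, with a mean of 4.10 CPM in hypothalamus and 56.5 in pituitary (log2 difference 3.64, SE 0.17), and Scn4a (3.57), Kcna5 (2.70) and the silent subunit Kcnv2 (2.33) were also higher in pituitary. Against WT pituitary, 27 members were higher and 82 lower in WT thyroid (83.8% called, with 75.6% of all genes, 37.0% higher and 38.6% lower), a median of -1.41 against -0.03. The inward rectifiers Kcnj16 (6.89) and Kcnj15 (6.80) and Kcnh3 (5.99) stood highest in thyroid on the log2 scale, followed by Cacna1s (5.98). Kcnj16 had mean levels of 1.10 CPM in pituitary and 188 in thyroid. The leak channel Kcnk2 (-6.22), Kcnh8 (-6.11), the T-type calcium channel Cacna1i (-5.77) and the A-type potassium channel Kcnd2 (-5.54) stood lowest. These 16 were picked as the 4 largest differences each way per contrast. Only members with a limma adjusted p under 0.05 in this fit, and averaging at least 1 CPM in 1 tissue of the pair, were eligible. Both contrasts use the WT pituitary libraries.

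**Figure D1:**
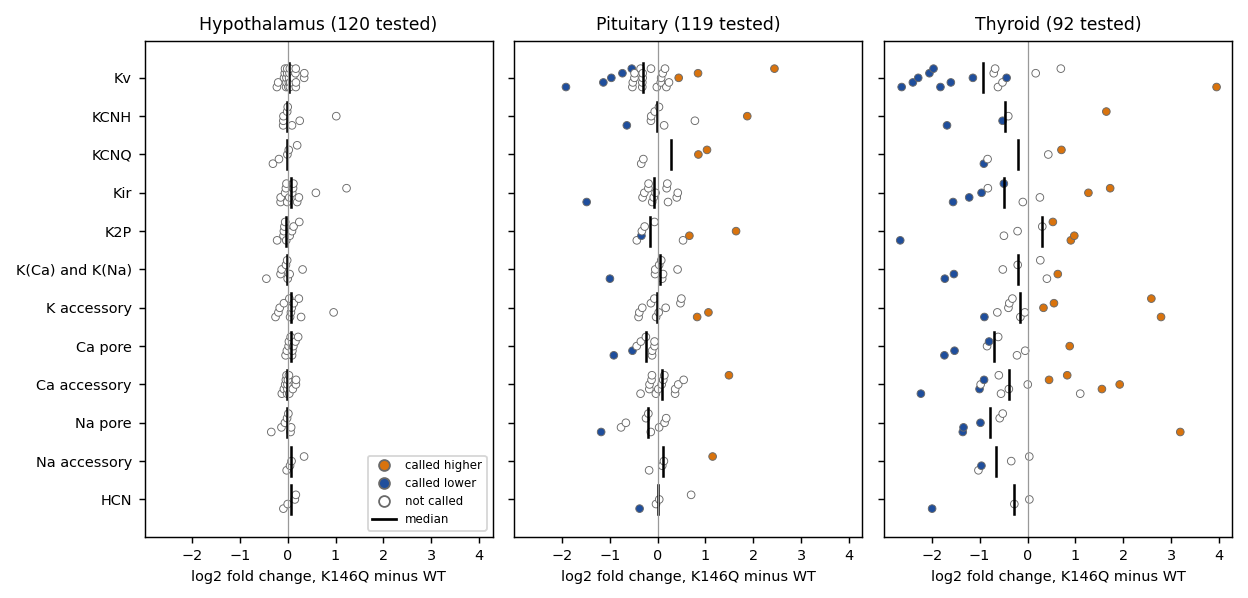
Log2 fold change (K146Q minus WT, x axis) of the channel genes that passed the filter, by family (y axis), in hypothalamus, pituitary and thyroid. Each point is 1 gene, orange where called higher, blue where called lower and white where not called, and the black bar is the family's median. Points gather at 0 in the hypothalamus (0 called), spread to both sides in the pituitary (25 called) and spread most in the thyroid (50 called).

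Within each tissue K146Q mice were compared with WT mice on log2(CPM + 0.5) by limma, where a gene reached 0.5 CPM in 3 or more libraries of the tissue. A gene is said to be called, to have risen or to have fallen where its Benjamini-Hochberg adjusted p over all genes tested in the tissue was under 0.05. All log2 fold changes are on this scale, on which the added 0.5 shrinks the changes of scarce transcripts. With 3 mice against 3, the exact two-sided permutation test of a single gene cannot give a p below 0.1, which every gene without overlap between genotypes reached.

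In the hypothalamus no channel gene passed this test. Of 120 members tested, 0 were called (background 0.0% of 15761 genes), 14 had an unadjusted p under 0.05, and the median log2 fold change was 0.02 against -0.0011 over all genes. The genotypes did not overlap for 11 of the 120 members, 9.17%, beside 9.15% of all genes. The same libraries gave 645 of all genes with an unadjusted p under 0.05. Over all genes edgeR on the recovered reads called 0 of 15761 and DESeq2 called 9 of 15758. Among the members edgeR called 0 and DESeq2 called 1. That member was Kcnh3, which encodes elk2, a potassium channel of forebrain neurons. Kcnh3 was at 5.31, 4.28 and 3.95 CPM in WT (mouse 1, mouse 2, mouse 43, the order kept throughout) and at 7.73, 11.4 and 9.90 CPM in K146Q mice 60, 62 and 83. All K146Q values lay above all WT values (log2 fold change 1.02, SE 0.16, limma adjusted p = 0.438; DESeq2 adjusted p = 0.00035).

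The 3 other members with the smallest unadjusted p in hypothalamus were Kcnj4, Cacna1h and Kcnj10. The inward rectifier Kcnj4 was at 9.55, 7.11 and 7.78 CPM in WT and 9.54, 14.2 and 14.1 in K146Q mice (log2 fold change 0.59), with mouse 60 inside the WT range. The T-type calcium channel Cacna1h was at 85.4, 81.0 and 75.4 in WT and 89.6, 104 and 88.2 CPM in K146Q mice (log2 fold change 0.22), and Kcnj10 at 586, 555.4 and 599 in WT and 501, 516 and 554 CPM in K146Q mice (-0.15), both without overlap, and all 3 with a limma adjusted p of 0.998. A pair of members, picked after their values were seen, had larger fold changes that followed individual mice. Kcnj13, an inward rectifier known from the choroid plexus, was at 0.239, 7.46 and 0.290 CPM in WT and 6.76, 6.70 and 0.645 CPM in K146Q mice. Kcne2, an accessory subunit known from the same epithelium, was at 0.418, 7.05 and 0.406 in WT and 6.40, 5.95 and 0.538 CPM in K146Q mice. WT mouse 2 and K146Q mice 60 and 62 were high for both genes and the other 3 mice low, and neither was called (limma adjusted p = 0.998 for each).

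In the pituitary, where 16 members did not pass the filter, 25 of 119 tested were called, 12 higher and 13 lower in K146Q mice, 21.01% of those tested where 9.86% of all 15589 genes were called. By direction the background was 6.36% called higher and 3.5% called lower, and the median log2 fold change of the members was -0.06 against -0.01 over all genes. The genotypes did not overlap for 47 of 119 members, 39.5%, beside 31.0% of all genes. The potassium class gave 10 rises and 9 falls among 78 tested, the calcium class 1 and 2 among 24, the sodium class 1 and 1 among 13, and the HCN class 1 fall among 4. With totals recomputed without the 10 highest genes the split moved to 10 higher and 19 lower, and without K146Q mouse 60 or mouse 62 the calls fell to 12 and to 15. All genes shifted too in these fits, from 991 higher and 546 lower to 841 and 885, and from 1537 calls to 625 and to 752. Hormone transcripts moved with genotype in the same libraries: the summed CPM of the thyrotroph markers was 3392 to 4600 in WT and 21806 to 28906 in K146Q mice, both markers called higher, and the lactotroph marker Prl, called lower, was at 19074 to 30662 in WT and 6929 to 8664 CPM in K146Q mice. The somatotroph markers Gh and Ghrhr summed to 97899 to 213197 in WT and 62593 to 75481 in K146Q mice, with 1 of the 2 called lower. The sum of 4 immune markers was 178 to 189 in WT and 318 to 540.1 in K146Q mice, all 4 called higher, and that of 6 neuron markers was 542 to 603 in WT and 778 to 843 in K146Q mice, 2 called higher and 1 lower. The part of these cell types in the channel changes was not tested.

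**Figure D2:**
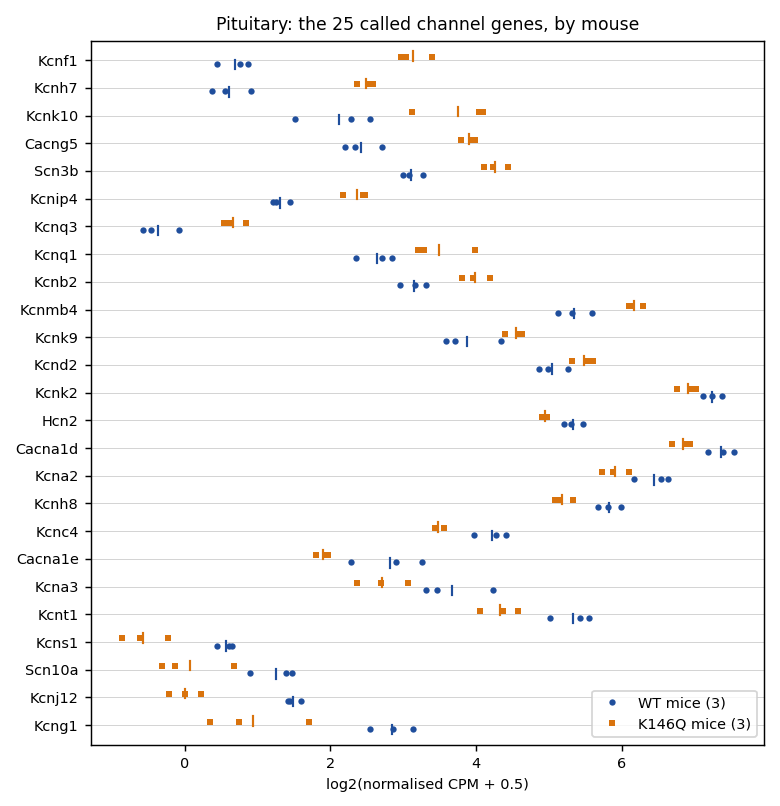
The 25 channel genes called in the pituitary, ordered by log2 fold change, with log2(CPM + 0.5) of each mouse on the x axis. Blue circles are the 3 WT mice, orange squares the 3 K146Q mice, and short bars the group means. The rises are led by Kcnf1 and the falls by Kcng1. The genotypes do not overlap in any of the 25 genes, which the choice of called genes favours.

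The largest rise in the pituitary was that of Kcnf1, a silent subunit that forms channels only together with pore subunits of the Kcnb family. It lies on chromosome 12 from 17172100 to 17176888 on the minus strand (GRCm38, GENCODE M21). Kcnf1 was at 1.33, 1.201 and 0.854 CPM in WT and at 10.01, 7.35 and 7.72 CPM in K146Q mice (log2 fold change 2.44, SE 0.18, limma adjusted p = 9.24e-05). Each K146Q value was at least 5 times each WT value, and the range with 1 mouse left out was 2.31 to 2.53. In the hypothalamus the same gene stood at 43.9, 44.1 and 50.8 CPM in WT and 43.2, 42.6 and 50.6 in K146Q mice, with overlapping ranges. Kcnb2, a pore partner of such silent subunits, rose as well, from 9.43, 7.26 and 8.43 in WT to 13.6, 15.01 and 17.8 CPM in K146Q mice (0.85, limma adjusted p = 0.00554). Other silent subunits fell. Kcng1 went from 5.34, 6.75 and 8.32 CPM in WT to 0.774, 1.17 and 2.76 CPM in K146Q mice (log2 fold change -1.92, SE 0.32, limma adjusted p = 0.00516), the largest fall among the members, and Kcns1 from 1.07, 0.858 and 1.03 in WT to 0.155, 0.0510 and 0.351 CPM in K146Q mice (-1.13, limma adjusted p = 0.0140), where mouse 62 is under the level of 3 reads.

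The promoter of Kcnf1 is shown because it heads the pituitary rises, that of Kcnk10 because it is the leak channel with the largest rise there, and that of Kcna4 because it heads the thyroid rises described below. Each line gives the 250 bases before a transcription start (RefSeq, GRCm38.p6), read 5′ to 3′ on the gene's strand, with capitals on each AGGTCA, the core motif that thyroid hormone receptor and related nuclear receptors recognise, on either strand. The windows are chr12:17176889-17177138 (minus strand), chr12:98575128-98575377 (minus strand, a start that lies inside the annotated gene) and chr2:107290339-107290588 (plus strand).
Kcnf1: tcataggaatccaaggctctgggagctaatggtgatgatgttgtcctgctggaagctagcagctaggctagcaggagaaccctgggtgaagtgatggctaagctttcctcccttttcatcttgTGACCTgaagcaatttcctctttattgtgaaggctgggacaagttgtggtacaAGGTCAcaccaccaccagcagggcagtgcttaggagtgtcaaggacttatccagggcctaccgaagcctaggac
Kcnk10: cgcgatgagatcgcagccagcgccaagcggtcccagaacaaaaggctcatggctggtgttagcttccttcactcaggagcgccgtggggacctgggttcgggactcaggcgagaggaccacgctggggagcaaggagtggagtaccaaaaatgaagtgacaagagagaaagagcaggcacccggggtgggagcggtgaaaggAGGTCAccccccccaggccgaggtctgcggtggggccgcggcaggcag
Kcna4: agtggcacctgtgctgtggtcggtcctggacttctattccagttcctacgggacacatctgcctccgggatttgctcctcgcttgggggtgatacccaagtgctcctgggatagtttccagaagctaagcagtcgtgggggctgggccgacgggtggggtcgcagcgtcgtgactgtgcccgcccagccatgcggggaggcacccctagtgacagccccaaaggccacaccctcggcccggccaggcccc
The Kcnf1 window held 2 such motifs, the Kcnk10 window 1 and the Kcna4 window 0. Of 32851 RefSeq promoter windows of this length 14.0% held at least 1 such motif and 1.36% at least 2, and of the 133 windows found for 98 members 7.52% held at least 1. Of the members called higher in pituitary, 3 of the 7 with a promoter had the motif (Kcnf1, Kcnk10 and Kcnip4), of those called lower 1 of 11 (Hcn2), and of those tested and not called 5 of 68. In thyroid the counts were 1 of 15 (Kcnh1), 1 of 19 (Kcnj16) and 3 of 33. The paired form known as DR4, a direct repeat of the motif with a spacer of 4 bases, was in 0 member windows and in 0.0152% of all windows, and the cyclic AMP response element TGACGTCA in 0 member windows and in 1.55% of all windows. The letters are a description of these windows and do not show binding.

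Leak channels of the two-pore family moved both ways in the pituitary. Kcnk10 (TREK-2), opened by stretch and lipids, was at 4.36, 2.35 and 5.35 CPM in WT and 15.9, 8.22 and 16.7 in K146Q mice (log2 fold change 1.64, SE 0.31, limma adjusted p = 0.00998). K146Q mouse 62 was the lowest of its genotype, still above all WT mice, and without mouse 60 the call was lost (log2 fold change 1.499, adjusted p = 0.0538). Its relative Kcnk2 (TREK-1), the more abundant of this pair per length of exon in WT, went the other way from 166, 138 and 151 in WT to 108, 122 and 129 CPM in K146Q mice (-0.34, limma adjusted p = 0.0477). The acid-sensitive leak channel Kcnk9 (TASK-3) was at 19.8, 11.6 and 12.6 CPM in WT and 20.6, 23.9 and 24.3 in K146Q mice (0.66, limma adjusted p = 0.0474), with WT mouse 1 close to the K146Q range. Both of these calls rest near the threshold, as described with the left-out mice below.

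Among the KCNH channels, Kcnh7 (erg3) rose and Kcnh8 (elk1) fell. Kcnh7 was at 1.38, 0.972 and 0.797 CPM in WT and 4.64, 5.51 and 5.22 CPM in K146Q mice (log2 fold change 1.87, SE 0.18, limma adjusted p = 3.46e-04). Its exons share 696 bases with Gca on the opposite strand, so that reads there cannot be assigned with certainty. Gca was at 27.4, 25.3 and 25.7 in WT and 29.0, 31.2 and 29.8 CPM in K146Q mice (log2 fold change 0.20, limma adjusted p = 0.183). Kcnh8 was at 63.1, 50.5 and 55.8 CPM in WT and 33.3, 34.8 and 39.6 in K146Q mice (log2 fold change -0.64, SE 0.10, limma adjusted p = 0.00477). The other erg channels, which carry resting potassium current in lactotrophs, were not called: Kcnh2 was at 197 ± 13.3 and 179 ± 5.52 CPM (SD, n = 3; log2 fold change -0.14) and Kcnh6 at 4.12 ± 0.574 and 4.64 ± 1.27 CPM (0.14). Kcnh1 (eag1) had a log2 fold change of 0.03.

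The KCNQ channels Kcnq3, an M-current subunit, and Kcnq1, which serves heart and epithelia, were both called higher. Kcnq3 rose from 0.445, 0.172 and 0.228 in WT to 1.29, 1.02 and 0.953 CPM in K146Q mice (1.03, limma adjusted p = 0.0176), and 3 reads stand for up to 0.172 CPM in these libraries. Kcnq1 was at 6.05, 6.69 and 4.61 CPM in WT and 15.4, 8.68 and 9.23 CPM in K146Q mice (0.85, limma adjusted p = 0.0381). K146Q mouse 60 was far above the other K146Q mice for Kcnq1, and without it the log2 fold change was 0.60 (adjusted p = 0.123). Kcnq1 also shares 121 exon bases with the antisense transcript Kcnq1ot1.

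Several accessory subunits, which tune other channels, rose in the pituitary. Scn3b, the β3 subunit of sodium channels, was at 9.12, 7.95 and 7.46 CPM in WT and 21.2, 18.4 and 16.8 CPM in K146Q mice (log2 fold change 1.15, SE 0.13, limma adjusted p = 6.33e-04). Cacng5, of the γ family of calcium channel subunits whose close relatives also escort AMPA receptors, was at 6.05, 4.12 and 4.56 in WT and 15.3, 14.96 and 13.4 CPM in K146Q mice (log2 fold change 1.49, SE 0.15, limma adjusted p = 4.21e-04). For both genes the K146Q mice lay within a narrow band well above the WT mice. Kcnmb4, a β subunit of the calcium-activated BK channel, rose from 34.5, 39.3 and 47.8 in WT to 77.7, 68.2 and 69.4 CPM in K146Q mice (0.83, limma adjusted p = 0.00232), while the BK pore gene Kcnma1 was at 85.9, 53.9 and 73.5 in WT and 75.9, 72.4 and 78.9 CPM in K146Q mice (0.11, limma adjusted p = 0.674). Kcnip4, a calcium-binding partner of the A-type channels, rose from 1.82, 2.23 and 1.88 in WT to 4.95, 4.03 and 5.07 CPM in K146Q mice (1.06, limma adjusted p = 0.00325). Kcnd2, an A-type pore, was called higher by a smaller margin, at 37.9, 31.3 and 28.7 CPM in WT and 39.4, 45.5 and 48.2 in K146Q mice (0.44, limma adjusted p = 0.0465). On the opposite strand Kcnmb4 shares 693 exon bases with the antisense transcript Kcnmb4os2, and Kcnip4 shares 168 with the protein-coding gene 5730480H06Rik and 99 with the antisense transcript Gm20700.

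Pores for calcium, a sodium-activated potassium channel and a pacemaker channel were among the pituitary falls. Cacna1d, the L-type calcium channel that opens at low voltages, was at 186, 167 and 144 CPM in WT and 103, 119 and 122 CPM in K146Q mice (log2 fold change -0.53, SE 0.10, limma adjusted p = 0.0122). The R-type calcium channel Cacna1e went from 9.08, 6.98 and 4.39 in WT to 2.99, 3.42 and 3.31 CPM in K146Q mice (-0.92, limma adjusted p = 0.0328). Among the 9 calcium channel pores tested, 0 had a log2 fold change above 0 and 2 were called. Of all 15589 genes tested 7508 were above 0 and 9.86% were called. Kcnt1, the sodium-activated potassium channel Slack, fell from 42.4, 46.4 and 32.01 in WT to 20.2, 23.4 and 16.1 CPM in K146Q mice (log2 fold change -0.997, SE 0.16, limma adjusted p = 0.00505). The pacemaker gene Hcn2 was at 36.4, 38.9 and 44.0 in WT and 30.9, 31.0 and 29.4 CPM in K146Q mice (-0.38, limma adjusted p = 0.0319).

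Of the Shaker and Shaw groups of voltage-gated potassium pores, Kcna2, Kcna3 and Kcnc4 fell. Kcna2 was at 98.7, 71.2 and 92.3 CPM in WT and 52.5, 58.6 and 68.0 in K146Q mice (-0.54), Kcnc4 at 18.9, 20.7 and 15.2 in WT and 10.4, 10.4 and 11.3 CPM in K146Q mice (-0.74), and Kcna3, best known from T cells, at 18.4, 10.6 and 9.46 in WT and 4.64, 5.97 and 7.88 CPM in K146Q mice (-0.97). Their limma adjusted p-values were 0.0326, 0.00701 and 0.0402. WT mouse 1 was far above the others for Kcna3, and without it the log2 fold change was -0.68 (adjusted p = 0.0855). The inward rectifier Kcnj12 fell from 2.22, 2.52 and 2.16 in WT to 0.361, 0.664 and 0.502 CPM in K146Q mice (log2 fold change -1.48, SE 0.19, limma adjusted p = 0.00142). Scn10a, a sodium channel pore of sensory neurons, was at 2.14, 2.29 and 1.37 in WT and 0.310, 0.408 and 1.10 CPM in K146Q mice (-1.18, limma adjusted p = 0.0313). The skeletal muscle pore Scn4a, at 6.54, 5.61 and 10.4 in WT and 4.70, 3.93 and 3.66 CPM in K146Q mice, missed the threshold (-0.76, limma adjusted p = 0.0525), and DESeq2, leaving out mouse 2, quantile normalization and totals without the 10 highest genes each called it (adjusted p = 0.0108 to 0.0408).

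Many channels of known pituitary roles were not called. The log2 fold changes were -0.05 for Kcnn2 and 0.03 for Kcnn3, the small-conductance calcium-activated channels, -0.04, -0.28 and -0.19 for the G protein-gated rectifiers Kcnj3, Kcnj6 and Kcnj9, and -0.19 for Kcnj11, the pore of the ATP-sensitive channel. For the L-type pore Cacna1c the values were 66.2, 55.5 and 60.7 CPM in WT and 36.3, 42.3 and 58.0 in K146Q mice (-0.44, limma adjusted p = 0.106), with mouse 83 inside the WT range, and without it the log2 fold change was -0.62 (adjusted p = 0.0111). The T-type pores Cacna1g (-0.12) and Cacna1h (-0.11) and the sodium pores Scn3a (0.15) and Scn9a (0.18) overlapped between genotypes. So did the vascular rectifier Kcnj8 (0.22), the smooth muscle BK subunit Kcnmb1 (-0.38), the glial Kcnj10 (-0.31) and Kcnj16 (-0.11), though without mouse 83 Kcnj10 was called (-0.46, adjusted p = 0.0444). Kcna5, at 71.9, 75.0 and 88.2 in WT and 57.7, 63.3 and 67.6 CPM in K146Q mice, did not overlap (-0.31, limma adjusted p = 0.0748), and was called by DESeq2 (-0.32, adjusted p = 0.0480) and when library totals omitted the 10 highest genes (-0.37, 0.0397). Kcna7, a muscle channel, did not overlap either, at 0.623, 0.744 and 0.740 in WT and 0.980, 0.919 and 0.853 CPM in K146Q mice (0.24, adjusted p = 0.470).

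Part of the pituitary calls depended on single mice or on the settings of the fit. Of the 25 members called, 13 lost the call with at least 1 mouse left out: Kcns1 (without mouse 60 or 62, adjusted p = 0.0599 and 0.0609), Kcnk10 and Cacna1d (without mouse 60, Cacna1d then at -0.45 and adjusted p = 0.0656), Kcnq3 (without mouse 2, 0.93 and 0.0573), and Kcnq1, Kcnk9, Kcnd2, Scn10a, Kcna3, Cacna1e, Kcna2, Hcn2 and Kcnk2, each without 4 or 5 of the mice. In these 9 the direction was the same in every fit and the log2 fold changes with a mouse left out ran from 0.35 to 0.998 for the rises and from -1.48 to -0.27 for the falls, with adjusted p-values of up to 0.207. The same 9 were also not called in the fit without the mean-variance trend, 7 of them without the filter on low values, Kcnd2 and Kcnk9 when library totals omitted the 10 highest genes, and Kcnk9 with edgeR (adjusted p = 0.0509 to 0.117). The other 12, among them Kcnf1, Kcnh7, Cacng5, Scn3b, Kcng1, Kcnj12, Kcnt1 and Kcnh8, were called in every alternative in which they were tested.

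In the thyroid 50 of 92 members tested were called, 19 higher and 31 lower in K146Q mice, 54.3% of those tested where 37.8% of all 15200 genes were called. The background by direction was 19.7% higher and 18.1% lower, beside 20.7% and 33.7% of the members. The other 43 members did not pass the filter. The median log2 fold change was -0.49 for the members and -0.03 over all genes. The genotypes did not overlap for 56 of 92 members, 60.9%, beside 52.3% of all genes. The potassium class had 13 rises and 20 falls among 58 tested, the calcium class 5 and 6 among 21, the sodium class 1 and 4 among 10 and the HCN class 1 fall among 3. Among the voltage-gated potassium pores and silent subunits 1 of 16 rose and 9 fell, and their median was -0.92.

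Markers of other cells of the gland and its surroundings moved with genotype in these libraries. The summed CPM of 4 C cell markers was 8968 to 14994 in WT and 1370 to 3529 in K146Q mice, with 3 called lower and 1 higher. Markers of 3 parathyroid genes summed to 3454 to 6409 in WT and 523 to 1569 in K146Q mice, 4 adipocyte markers to 243 to 337 and 45.7 to 102, and 2 brown adipocyte markers to 64.7 to 224 and 1.06 to 13.2, and each of these 9 markers was called lower. Immune markers (4 genes) summed to 449 to 549 in WT and 1282 to 1581 in K146Q mice, 4 markers of proliferation to 44.4 to 68.5 and 159 to 205 and 4 smooth muscle and pericyte markers to 186 to 227 and 297 to 387, and each of these 12 was called higher. The follicular sum was 298992 to 360966 in WT and 89814 to 137150 in K146Q mice, with 3 of 6 markers called higher and 1 lower. Neuron markers summed to 17.1 to 22.4 and 23.4 to 32.6 (2 of 6 higher, 2 lower) and Schwann cell markers to 169 to 209.9 and 121 to 166 (1 of 4 higher, 1 lower). No marker of these lists was at 0 in all libraries. The part of these cells in the channel changes was not tested.

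**Figure D3:**
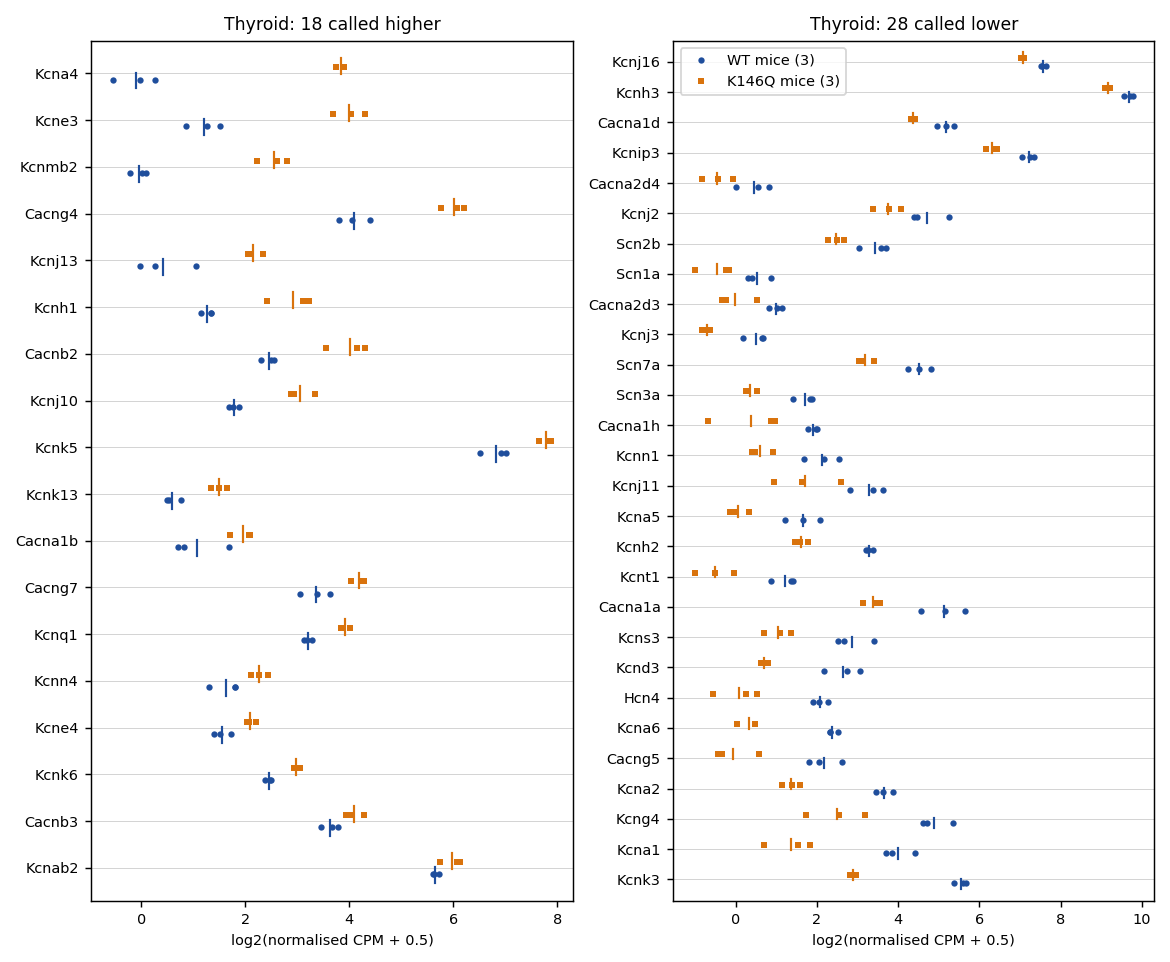
Of the channel genes called in the thyroid, 18 of the 19 called higher (left) and 28 of the 31 called lower (right), ordered by log2 fold change, with log2(CPM + 0.5) of each mouse on the x axis. Blue circles are WT mice, orange squares K146Q mice, and short bars the group means. The genotypes do not overlap in any gene shown, which the choice of called genes favours. The rises are led by Kcna4 and the falls by Kcnk3.

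The largest rise in the thyroid was that of Kcna4, an A-type Shaker channel, on chromosome 2 from 107290639 to 107298502 on the plus strand (GRCm38, GENCODE M21). It was at 0.695, 0.190 and 0.481 CPM in WT and at 14.5, 14.5 and 12.8 CPM in K146Q mice (log2 fold change 3.95, SE 0.23, limma adjusted p = 5.15e-05). It was close to undetected in 1 WT mouse and even among K146Q mice, and with 1 mouse left out the log2 fold change was 3.74 to 4.13. Kcna4 was not called in the hypothalamus or pituitary.

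Kcne3 and Kcne4, accessory subunits of potassium channels, rose in the thyroid. Kcne3, which locks Kcnq1 in an open state in epithelia, was at 1.33, 1.90 and 2.35 CPM in WT and 15.8, 19.3 and 12.3 CPM in K146Q mice (log2 fold change 2.79, SE 0.23, limma adjusted p = 1.55e-04). Its pore partner Kcnq1 rose less, from 8.21, 8.67 and 9.26 in WT to 14.1, 15.7 and 13.8 CPM in K146Q mice (log2 fold change 0.71, SE 0.12, limma adjusted p = 0.00294). Kcne2, the Kcnq1 subunit known from thyroid cells, did not pass the filter: 1 read in all WT libraries together and 36 in all K146Q libraries gave a ratio of 32.03 (exact 95% interval 5.39 to 1300, counting error only). Kcne4 rose to a lesser degree (0.55), and Kcne1, at 0.0632, 0.253 and 0.180 in WT and 0.248, 1.53 and 0.410 CPM in K146Q mice, did not pass the filter. Kcnmb2, a β subunit that inactivates the BK channel, was at 0.505, 0.569 and 0.361 in WT and 5.65, 6.52 and 4.16 CPM in K146Q mice (log2 fold change 2.59, SE 0.21, limma adjusted p = 1.64e-04), while the BK pore Kcnma1 was not called, at 1.1999, 2.40 and 3.97 in WT and 3.17, 3.70 and 1.99 CPM in K146Q mice (0.27).

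Of 9 inward rectifiers tested 2 rose and 4 fell (of all genes 19.7% rose and 18.1% fell). Kcnj10 rose from 2.72, 2.91 and 3.19 CPM in WT to 9.62, 6.82 and 7.21 CPM in K146Q mice (log2 fold change 1.27, SE 0.17, limma adjusted p = 0.00129), while Kcnj16, with which it forms channels, fell from 186, 197 and 182 in WT to 136, 129 and 135 CPM in K146Q mice (log2 fold change -0.49, SE 0.07, limma adjusted p = 0.00188). Kcnj15, at 314, 310.4 and 367 in WT and 306, 324 and 295 CPM in K146Q mice, was not called (-0.10, limma adjusted p = 0.467). Kcnj13, an epithelial rectifier, rose from 1.58, 0.696 and 0.481 in WT to 3.72, 4.58 and 3.63 CPM in K146Q mice (1.73, limma adjusted p = 0.00331). Its exons share 623 bases with Gigyf2 on the opposite strand, which was at 65.9, 69.7 and 67.3 in WT and 57.4, 63.1 and 63.3 CPM in K146Q mice (-0.14, limma adjusted p = 0.176). Falls were called for Kcnj11, the pore of the ATP-sensitive channel, from 6.505, 9.87 and 11.8 in WT to 5.50, 1.41 and 2.58 CPM in K146Q mice (-1.56, limma adjusted p = 0.0207), for Kcnj2 (-0.96) and for Kcnj3 (-1.22, at most 1.08 CPM). The call of Kcnj11 was lost without mouse 2, 43, 62 or 83, with log2 fold changes of -1.17 to -1.51 and adjusted p-values of 0.0525 to 0.0635.

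Of 7 two-pore leak channels tested 3 rose and 1 fell (of all genes 19.7% rose and 18.1% fell). Kcnk3, the acid-sensitive TASK-1 channel, on chromosome 5 from 30588170 to 30625271 (plus strand), was at 50.5, 47.7 and 40.8 CPM in WT and 7.34, 6.52 and 6.80 CPM in K146Q mice (log2 fold change -2.66, SE 0.12, limma adjusted p = 1.36e-05). Both genotypes were tight around their means, and the log2 fold change was -2.75 to -2.60 with 1 mouse left out. Kcnk5 (TASK-2), an epithelial leak channel opened by alkaline conditions, rose from 120.2, 90.5 and 129 in WT to 199.7, 234 and 231 CPM in K146Q mice (log2 fold change 0.98, SE 0.14, limma adjusted p = 0.00169). Kcnk13 (0.91) and Kcnk6 (0.53) rose as well. The abundant Kcnk1 did not overlap between genotypes, at 725, 484 and 673 in WT and 771, 778 and 749 CPM in K146Q mice, but was not called (0.31, limma adjusted p = 0.172). Kcnk16, known from pancreatic islets, did not pass the filter, with 34 reads in WT and 1 in K146Q libraries (ratio 38.2, exact 95% interval 6.41 to 1553). Also under the filter were the delayed rectifier Kcnb2, with 24 reads in WT and 1 in K146Q libraries (ratio 26.98, interval 4.40 to 1109), and the silent subunit Kcng2, with 2 in WT and 28 in K146Q libraries (ratio 12.5, interval 3.14 to 108). These ratios, and that of Kcne2 above, were computed only for members with 1 to 3 reads in 1 genotype and many more in the other. Intervals away from 1 were thus fixed by that choice, and members without reads in 1 genotype were not considered.

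Kcna1, Kcna2, Kcna5 and Kcna6, potassium pores of the Shaker group, fell, while Kcna3 was not called. Kcna1 was at 14.0, 20.8 and 12.4 CPM in WT and 3.07, 1.12 and 2.40 CPM in K146Q mice (log2 fold change -2.63, SE 0.32, limma adjusted p = 8.03e-04). Kcna2 was at 11.7, 14.2 and 10.5 in WT and 2.48, 1.70 and 2.11 CPM in K146Q mice (log2 fold change -2.28, SE 0.18, limma adjusted p = 1.44e-04). Kcna6 had a log2 fold change of -2.05 and Kcna5, a channel of vessels and heart, of -1.60, both called, and Kcna6 shares 2355 exon bases with an antisense transcript. The silent subunits Kcng4, from 23.9, 39.9 and 25.7 in WT to 8.62, 2.82 and 5.33 CPM in K146Q mice (-2.40, limma adjusted p = 0.00204), and Kcns3 (-1.82) fell. The A-type pore Kcnd3 (-1.96) and its partner Kcnip3, an abundant calcium-binding protein at 151, 132 and 162 in WT and 85.8, 81.6 and 70.5 CPM in K146Q mice (log2 fold change -0.90, SE 0.11, limma adjusted p = 7.81e-04), fell too. For Kcna1 and Kcng4, WT mouse 2 was the highest and K146Q mouse 62 the lowest, and the same mice were the highest WT (14994 CPM) and lowest K146Q (1370 CPM) for the summed C cell markers, and likewise for the parathyroid markers (6409 and 523 CPM). Of the other falls with values of each mouse given, Kcna2, Kcnj16, Cacna1a, Cacng5 and Hcn4 had the same highest and lowest mice. Kcnk3, Kcnj11, Kcnh2, Kcnh3, Kcnip3, Kcnt1, Cacna1d, Cacna1h, Scn3a and Scn7a did not. K146Q mouse 62 was also the lowest for adipocyte markers (45.7 CPM), while the highest WT mouse for them was mouse 43 (337 CPM). The part of these cells in the falls was not tested.

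Kcnh2, the erg1 channel, fell from 9.03, 9.87 and 8.78 CPM in WT to 2.92, 2.47 and 2.23 CPM in K146Q mice (log2 fold change -1.68, SE 0.15, limma adjusted p = 2.31e-04), and Kcnh3, the most abundant member of the WT thyroid by CPM, from 758, 838 and 871 in WT to 594, 581 and 541 CPM in K146Q mice (log2 fold change -0.52, SE 0.11, limma adjusted p = 0.00857). Kcnh1 (eag1), a channel linked to proliferation, rose from 1.71, 2.02 and 2.04 in WT to 8.87, 4.88 and 8.15 CPM in K146Q mice (log2 fold change 1.65, SE 0.23, limma adjusted p = 0.00153). The KCNH channels thus did not move one way. Among calcium- and sodium-activated channels, Kcnt1 (1.33, 2.15 and 2.04 to 0.198, 0.470 and 0 CPM, -1.73) and the small-conductance Kcnn1 (-1.54) fell and the intermediate-conductance Kcnn4 (0.63), known from immune and epithelial cells, rose. Kcnn2 (-0.20) and Kcnn3 (-0.52) were not called.

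Of 8 calcium channel pores tested 1 rose and 3 fell (of all genes 19.7% rose and 18.1% fell). Cacna1a, the P/Q-type pore, was at 35.2, 49.5 and 23.2 CPM in WT and 11.2, 8.29 and 10.7 CPM in K146Q mice (log2 fold change -1.74, SE 0.26, limma adjusted p = 0.00194), and Cacna1d at 41.0, 35.8 and 30.3 in WT and 20.8, 20.3 and 19.2 CPM in K146Q mice (log2 fold change -0.80, SE 0.12, limma adjusted p = 0.00209). The T-type pore Cacna1h, at 3.47, 2.91 and 3.43 in WT and 1.34, 0.118 and 1.47 CPM in K146Q mice, was called (-1.53, limma adjusted p = 0.0263), but not without WT mouse 1 or 43 (-1.49 in both, adjusted p = 0.0612 and 0.0601). Cacna1a carries the antisense transcript Gm16183 over 435 exon bases, Cacna1d overlaps Chdh over 589 and Cacna1h overlaps Tpsg1 over 158. The N-type pore Cacna1b was the 1 rise among pores, from 2.72, 1.27 and 1.14 in WT to 3.77, 2.76 and 3.69 CPM in K146Q mice (0.88, limma adjusted p = 0.0435), and the call was lost in each fit without mouse 2, 43, 60, 62 or 83 (0.70 to 1.01, adjusted p = 0.0712 to 0.117). Cacna1c (-0.61, limma adjusted p = 0.0630) and Cacna1g (-0.05) were not called, and without mouse 43 or 83 Cacna1c was (-0.78 and -0.79, adjusted p = 0.0348 and 0.0361), as it was with DESeq2 (-0.63, 0.0432) and when library totals omitted the 10 highest genes (-0.71, 0.0436).

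Of the accessory calcium channel subunits 4 of 13 rose and 3 fell (of all genes 19.7% rose and 18.1% fell). Cacng4 was at 13.5, 20.6 and 16.1 CPM in WT and 53.8, 73.2 and 66.9 CPM in K146Q mice (log2 fold change 1.93, SE 0.17, limma adjusted p = 2.27e-04), and the β subunit Cacnb2, which traffics the pore to the membrane, at 5.37, 4.43 and 5.17 in WT and 11.3, 17.3 and 19.3 CPM in K146Q mice (log2 fold change 1.56, SE 0.21, limma adjusted p = 0.00117). Cacng7 (0.83) and Cacnb3 (0.45) rose by less. Cacng5 fell from 3.66, 5.63 and 3.01 in WT to 0.991, 0.235 and 0.293 CPM in K146Q mice (log2 fold change -2.23, SE 0.33, limma adjusted p = 0.00199), and the α2δ subunits Cacna2d3 (-1.003) and Cacna2d4 (-0.91) fell. All K146Q values of Cacng5 were below all WT values, and those of Cacng4 and Cacnb2 above.

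Of the sodium channels, the pores Scn3a (3.16, 3.04 and 2.165 to 0.694, 0.705 and 0.938 CPM, -1.35), Scn1a (-0.98, at most 1.33 CPM) and Scn7a, a sodium sensor, from 22.3, 27.5 and 18.5 in WT to 10.01, 8.29 and 7.62 CPM in K146Q mice (-1.34), fell, and the β subunit Scn2b fell by 0.96 on the log2 scale. Hcn4, the main pacemaker channel of the heart, fell from 3.22, 4.30 and 3.61 in WT to 0.694, 0.176 and 0.938 CPM in K146Q mice (log2 fold change -1.99, SE 0.30, limma adjusted p = 0.00198). Hcn2, more abundant in the gland, was at 63.9, 47.2 and 78.4 in WT and 52.1, 57.5 and 44.3 CPM in K146Q mice (-0.28, limma adjusted p = 0.277), and without WT mouse 2, its lowest WT value, it was called (-0.47, adjusted p = 0.0437).

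Of the 50 members called in thyroid, 36 kept the call in every alternative in which they were tested, among them Kcna4, Kcne3, Kcnmb2, Kcnj10, Kcnk5, Kcnk3, Kcna1, Kcng4, Kcnh2, Kcnip3 and Cacng5. The other 14 lost it with at least 1 mouse left out (adjusted p = 0.0520 to 0.172) and kept their direction. Beside Kcnj11, Cacna1h and Cacna1b they included Kcnj2 and Cacna2d4 (without mouse 62 or 83), Scn1a (62 or 83), Kcnk6 (60 or 62), Cacna2d3 (1, 2, 62 or 83), and Cacnb3 (2, 43, 60 or 62). Kcnn4, Kcne4 and Kcnab2, a β subunit of Shaker channels (0.33), each lost the call on leaving out any 1 of 5 mice. Of these 14, 9 also lost it in other settings (adjusted p = 0.0514 to 0.148), among them Cacna1h, Cacna2d4 and Scn1a with edgeR or a pseudocount of 0.1 and Cacna1b, Cacnb3, Kcnab2, Kcne4 and Kcnn4 without the filter on low values.

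**Figure D4:**
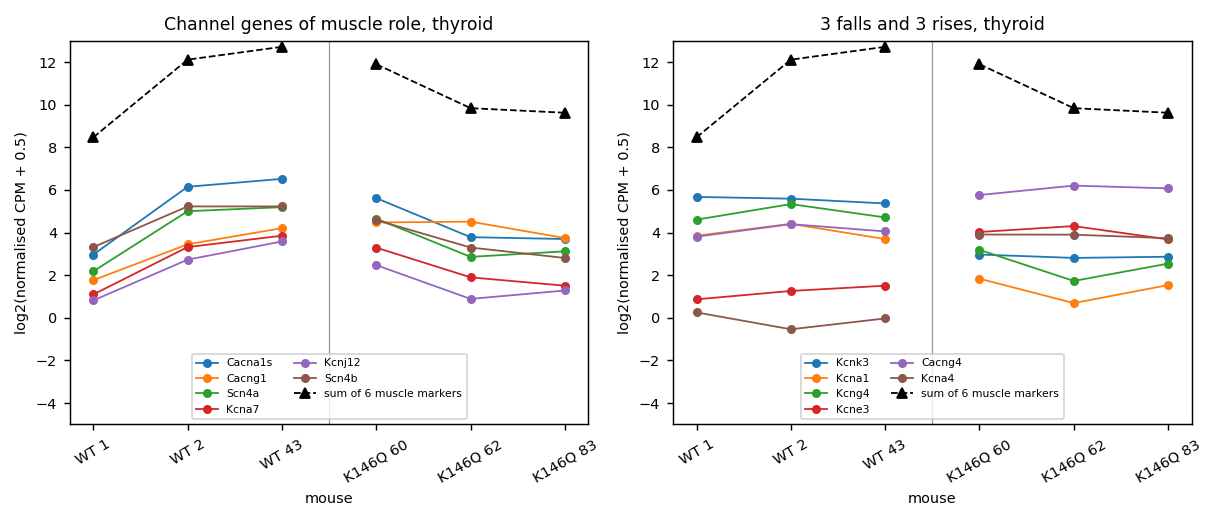
Log2(CPM + 0.5) in each thyroid library for 6 channel genes of muscle role (left) and for 3 called falls and 3 called rises (right). Each coloured line joins the values of 1 gene within a genotype, and black triangles are the summed CPM of 6 skeletal muscle markers. On the left every gene is lowest among WT mice in mouse 1, as are the muscle markers, and all but Cacng1 are highest among K146Q mice in mouse 60. Kcnj12 and Scn4b were noticed after their values were seen, so their likeness to the markers was fixed by that choice.

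Channels of skeletal muscle varied between mice along with the muscle markers of the thyroid pieces. The summed CPM of 6 skeletal muscle markers was 354, 4427 and 6721 in WT mice 1, 2 and 43 and 3813, 913 and 788 in K146Q mice 60, 62 and 83, with 0 of the 6 markers called. Cacna1s, the pore that couples excitation to contraction, was at 7.33, 70.5 and 91.2 in WT and 48.6, 13.3 and 12.5 CPM in K146Q mice, and Scn4a, the muscle sodium channel, at 4.04, 31.6 and 36.1 in WT and 24.7, 6.76 and 8.21 CPM in K146Q mice. WT mouse 1 was the lowest and WT mice 2 and 43 the highest for both, as for the markers, and neither was called (-0.85 and -0.58). Without WT mouse 1 both would have been called lower (-1.97, adjusted p = 0.0306, and -1.55, adjusted p = 0.0473). The muscle γ subunit Cacng1, at 2.90, 10.4 and 17.98 in WT and 21.8, 22.3 and 12.9 CPM in K146Q mice, was not called (1.10), but without WT mouse 43 it was (1.63, adjusted p = 0.0376). Kcna7 (1.64, 9.49 and 14.0 in WT and 9.32, 3.23 and 2.34 CPM in K146Q mice), Kcnj12 (1.26, 6.14 and 11.5 in WT and 5.06, 1.35 and 1.93 CPM in K146Q mice), Kcnc1 (1.77, 10.8 and 10.8 in WT and 6.39, 2.35 and 2.87 CPM in K146Q mice) and Scn4b (9.47, 37.0 and 37.0 in WT and 23.5, 9.34 and 6.51 CPM in K146Q mice), noticed after their values were seen, also had mouse 1 as the lowest of the WT mice. The channels of smooth muscle and vessels Kcnj8 (0.26) and Kcnmb1 (-0.06) were not called.

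The genotype effect was then compared between pituitary and thyroid. A test of the difference itself (pituitary effect minus thyroid effect, in the fit over 18 libraries) called 60 of 130 members, 37 with a higher value in pituitary and 23 with a lower one, 46.2% where 33.8% of 17140 genes were called. By direction the background was 17.4% and 16.4%, and the median difference was 0.27 for the members and 0.02 over all genes. This fit shares 1 estimate of a gene's spread over all 6 groups, hypothalamus included. Between replicate libraries the chi-square per degree of freedom was 6.11 to 11.4 in hypothalamus, 8.98 to 67.3 in pituitary and 19.7 to 71.4 in thyroid. The SEs and limma p-values below may therefore be too small for the 2 tissues compared. The 5 members with the smallest limma adjusted p were Kcnk3 (difference 3.19, SE 0.20, limma adjusted p = 5.80e-09), Kcna4 (-3.89, SE 0.28, 2.33e-08), Kcnh2 (1.54, SE 0.11, 3.01e-08), Cacng5 (3.72, SE 0.32, 2.41e-07) and Kcne3 (-2.38, SE 0.25, 1.92e-06). For Kcnk3 the pituitary values were 34.6, 37.1 and 22.8 CPM in WT and 51.1, 44.5 and 39.6 in K146Q mice (log2 fold change 0.53, not called by limma and called by DESeq2 with adjusted p = 0.0202), beside the fall in thyroid. An exact permutation test of genotype labels within tissues, over 400 arrangements, gave p = 0.005 for Kcnk3 and Cacng5, the smallest it allows, and 0.06, 0.095 and 0.1 for Kcna4, Kcnh2 and Kcne3. Kcne3 was at 0.0445, 0.0572 and 0.0570 CPM in the WT pituitary and 0.155, 0.255 and 0.301 CPM in the K146Q pituitary, and at these few reads edgeR and DESeq2 did not call its difference (-1.01 and -0.92, adjusted p = 0.538 and 0.529).

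**Figure D5:**
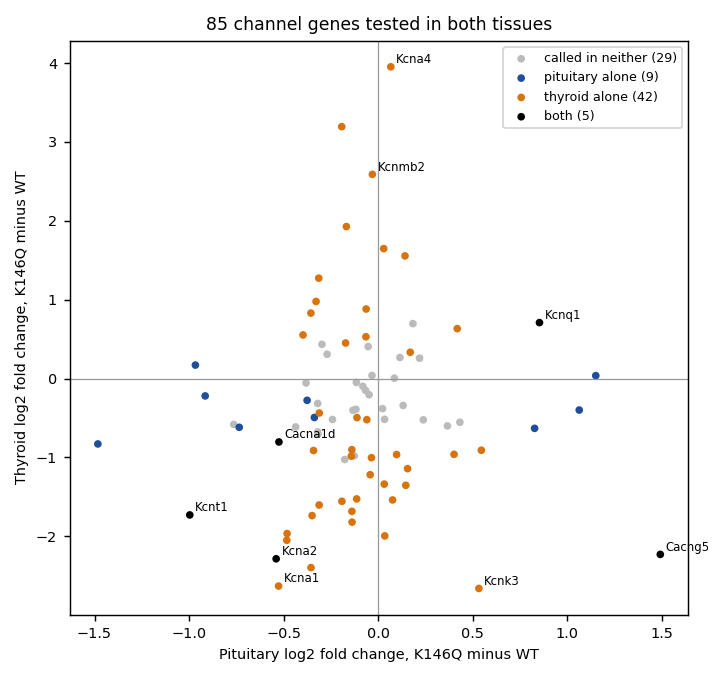
Log2 fold change (K146Q minus WT) in pituitary (x axis) against thyroid (y axis) for the 85 channel genes tested in both tissues, 1 point each. Blue points were called in pituitary alone (9), orange in thyroid alone (42), black in both (5) and grey in neither (29). Kcna4 and Kcnmb2 lie near 0 in pituitary at the top of the thyroid axis, and Cacng5 is far right and low.

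Of 85 members tested in both tissues, 5 were called in both, 35.7% of the 14 called in pituitary and 10.6% of the 47 called in thyroid among these 85. Of all 14333 genes tested in both tissues 4.83% were called in both, which is 51.4% of their pituitary calls and 12.98% of their thyroid calls. Cacna1d, Kcna2 and Kcnt1 fell in both tissues and Kcnq1 rose in both. The pituitary calls of Cacna1d, Kcna2 and Kcnq1 were lost in some fits with a mouse left out, as given above. Cacng5 rose in pituitary (1.49) and fell in thyroid (-2.23). The test of the difference, which uses the same libraries, adds little to these opposite calls. Kcnh2 fell in thyroid (-1.68) and was at -0.14 in the pituitary, where it was the most abundant potassium channel per length of exon.

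A list of 99 other channels and channel partners, chosen with earlier results of these data known, was counted in the same fits (98 in the tables). In the hypothalamus 0 of 89 tested were called (0.0% of all genes were called), in the pituitary 13 rose and 3 fell of 92 (of all genes 6.36% rose and 3.5% fell), and in the thyroid 17 rose and 26 fell of 81 (of all genes 19.7% and 18.1%). The largest pituitary changes were the rises of Trpm5, a calcium-activated cation channel (3.22, limma adjusted p = 9.77e-05), and Stac, a partner of L-type channels (2.25, 6.40e-04), and the falls of Stac2 (-0.89) and the chloride transporter Slc12a5 (-0.41). In the thyroid they were the rises of the ryanodine receptor Ryr3 (3.78, 1.05e-04) and the cation channel Trpm2 (3.64, 3.23e-05), and the falls of Abcc8 (-3.35, 6.52e-05), the sulfonylurea receptor that assembles with Kcnj11, and Unc80 (-2.21), a partner of the sodium leak channel. Abcc8 and its pore partner Kcnj11 thus both fell in the K146Q thyroid.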

How the data were processed

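RNA-Seq (Illumina HiSeq) of hypothalamus, pituitary and thyroid came from 3 WT and 3 K146Q mice. The deposited tables, 1 per tissue, list 24054 genes with a normalized signal for each library. They also hold the authors' average log2 value and their fold changes, p-values and FDR, and no result of the authors' comparisons was used. Per the submitters' processing notes bcl2fastq 2.17, Bowtie2 2.1.0, RSEM 1.2.15 and build mm10 were used. The annotation, strand setting and normalization are not given in the sources used here. Dividing by the worth of 1 read turned 100% of 432972 values into whole reads (within 0.01 read), so the deposited signal is CPM of a scaled library size: columns sum to 896894 to 1269759. All 24027 symbols that occur once in each table have the same average log2 in all 3, from which 1 joint normalization is inferred. 0 columns were left unmapped.

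Values were taken to log2(CPM + 0.5), filtered (at least 0.5 CPM in at least 3 libraries) and compared with limma 3.58.1 (R 4.3.3) with a mean-variance trend, per tissue, and over 18 libraries with 6 group means for differences between tissues, with Benjamini-Hochberg adjustment over all genes tested. The members and lists were chosen with earlier results of these data known. Named members were the 12 largest rises and falls per tissue among those called that averaged 1 CPM or more and did not overlap, the 4 smallest p-values in hypothalamus, members of known role, the highest level per class, the 5 smallest p-values for the difference between tissues and the 4 largest differences each way between WT tissues. The remaining members called, and others for which a value is given, were named after their values were seen. As alternatives, the pseudocount was set to 0.1 or 1, the filter was dropped or raised to 1 CPM in each of the libraries, and median-of-ratios, quantile normalization, totals without the 10 highest genes, no trend, edgeR 4.0.16 and DESeq2 1.42.0 on the recovered reads, leaving out each mouse, and mouse number as a block were tried. On simulated data with 200 genes changed 2- or 4-fold, the pituitary test recovered 100% of them among 15610, with 3.85% of calls false. The difference between tissues recovered 85.2% of 2-fold and 100% of 4-fold changes among 17130, with 6.60% false. The simulated spread between mice was the same for every gene and was not taken from these libraries. Scarce genes were not among those changed, so these shares do not carry over to the real calls.

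Groups and mouse numbers came from the sample labels. The series' design counts 3 mice of each genotype, so a number shared across tissues was taken as 1 mouse. Deviations from the group means correlated at -0.03 to 0.17 over the 18 same-numbered pairs (3 over 0.1). Libraries of 1 group were further apart than counting alone gives (chi-square per degree of freedom at least 6.11). Intervals on reads cover counting error only, and were computed only for members picked for few reads in 1 genotype and many in the other. Gene positions and exon lengths are from GENCODE M21 (all 135 members matched by symbol) and promoters from RefSeq (98 members). Without a stated strand, reads of a gene and of an overlapping gene on the other strand cannot be told apart. Protein sequences were not used here. Some members are counted but not reported by name here.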

Additional observations from a re-analysis of the deposited data

Results flagged for a closer look

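The genotype effect differed between pituitary and thyroid in 5 members, taken as the 5 smallest adjusted p-values of that test. The pituitary effect minus the thyroid effect was 3.192 (log2) for Kcnk3, -3.886 for Kcna4, 1.543 for Kcnh2, 3.72 for Cacng5 and -2.381 for Kcne3. Kcnk3 and Kcnh2 fell in the thyroid and were not called in the pituitary, Kcna4 rose in the thyroid alone, and Cacng5 was called in opposite directions. For Kcne3 the pituitary side rests on few reads, as given above.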

How the results depend on the processing

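Counts of called members kept within 1.5 times of the reported count except as follows. In hypothalamus DESeq2 called 1 member in place of 0, and leaving out a mouse gave 0 to 0. Over all genes DESeq2 called 9 of 15758, and leaving out a mouse gave 0 to 6. In pituitary the fit without the mean-variance trend called 16 (9 higher, 7 lower) in place of 25, and leaving out a mouse gave 12 to 23. Over all genes that fit called 1104 in place of 1537, and leaving out a mouse gave 625 to 1345. In thyroid a filter of at least 1 CPM in every library left 59 members and 33 calls, and with this filter the difference between tissues gave 24, WT pituitary against hypothalamus 37 and WT thyroid against pituitary 39, of 43 members left. Over all genes this filter gave 4958 calls of 13131 in thyroid, and 4274, 9108 and 9197 of 11933 in those 3 contrasts. Leaving out a mouse gave 37 to 49 in thyroid, and 48 to 69 (69 without WT mouse 1), 106 to 110 and 107 to 109 in those 3 contrasts. Over all genes the calls were then 3602 to 5106 in thyroid, and 4027 to 5457, 11606 to 12492 and 11898 to 12941 in the contrasts. Totals without the 10 highest genes set the median of all genes at -0.12 in thyroid, at 0.26 for WT pituitary against hypothalamus and at -0.28 for WT thyroid against pituitary.

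With mouse number as a block the difference between tissues called 61 members (38 higher, 23 lower) and the WT tissue contrasts 110 and 109, and the block changed no call of a named member. Over all 17140 genes the block fit called 5955 for the difference and 12648 and 13062 for the WT tissue contrasts.

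Members that were not called changed sign with a mouse left out, from low to high: in pituitary Kcnj16 (-0.23 to 0.021), Kcnma1 (-0.071 to 0.26), Kcnn2 (-0.22 to 0.070), Kcnn3 (-0.086 to 0.21), Kcnj3 (-0.22 to 0.22), Kcnh1 (-0.064 to 0.14), Kcnh6 (-0.056 to 0.26) and Scn9a (-0.10 to 0.43), and in thyroid Kcnma1 (-0.094 to 0.60), Cacna1g (-0.14 to 0.097), Kcna7 (-1.35 to 0.025) and Kcnmb1 (-0.25 to 0.17). Totals without the 10 highest genes turned Kcnn3 (-0.022) and Kcnh1 (-0.026) in pituitary, and quantile normalization Kcnmb1 (0.014) in thyroid. No named member that was called changed sign under any of these alternatives. With 3 mice a group, members under about 1 CPM rest on few reads, which limits the precision of their changes.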
